A study of Danio rerio with 6 samples.

Results

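The 9 genes of thrombocyte identity, adhesion and clotting described here were measured in blood cells of the larval zebrafish kidney: itga2b, itgb3a, itgb3b, gp9, gp1bb, f13a1b, thbs1b, nfe2 and fn1b. They belong to a set of 10 found by exact gene symbol among the 25116 Ensembl gene rows of a table of 27314 rows, where each symbol matched 1 row. The libraries were Smart-seq2 cDNA libraries, a full-length method without molecular identifiers, each made from 50 sorted cells. There were 3 libraries from DMSO-treated and 3 from MTZ-treated larvae, all 9 days post fertilization (dpf) and, as the labels write it, 3.5 dpt. Both groups came from Tg(coro1a:DenNTR) fish, although the genotype label reads WT, so the control larvae carried the transgene too. In this line the leukocyte promoter coro1a drives Dendra2, a protein that light turns from green to red, joined to NTR. In such lines NTR commonly stands for nitroreductase, an enzyme that makes the prodrug metronidazole (commonly MTZ) toxic to the cell. The kidney was lit with a 405-nm laser for 30 s, about 80 larvae were pooled, and red cells were sorted. Whether each library had its own pool of larvae is not stated, so p-values measure only library-to-library spread, part or all of which may be technical.

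Thrombocytes are the nucleated blood cells that do in fish what platelets do in mammals. The integrin made of the itga2b product and a beta-3 subunit binds fibrinogen and holds aggregating cells together, and the glycoprotein Ib-IX-V complex binds von Willebrand factor on damaged vessels. NF-E2 is a transcription factor that mouse megakaryocytes need to shed platelets, and factor XIII cross-links fibrin. In zebrafish itga2b, also called cd41, is expressed in thrombocytes and at a lower level in blood stem and progenitor cells.

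Libraries held between 14058382 and 20674280 estimated counts. Values below are CPM, counts scaled to a common library size with TMM factors, and a count of 3, taken as the floor of detection, corresponded to between 0.149 and 0.233 CPM. Levels are compared between libraries and not between genes, because they were not divided by gene length. In sorted pools, fewer cells of a type and less RNA per cell cannot be told apart. The coro1a gene itself had 2180 ± 585 CPM (SD, n = 3) in DMSO and 1637 ± 363 CPM (SD, n = 3) in MTZ. Skeletal muscle markers stood apart in DMSO 1, with a sum of 10245 CPM, against 3.95 to 29.9 CPM in the rest.

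The thrombocyte genes were found in part and in different combinations. Of the 9 genes, DMSO 1, DMSO 2 and DMSO 3 held 4, 6 and 4 above the floor, and MTZ 1, MTZ 2 and MTZ 3 held 6, 7 and 6. Only f13a1b and nfe2 were above it in all 6 libraries, and itgb3a was at 0 in all of them. No library held the whole set, so the values are read gene by gene and not as a count of thrombocytes. Over the whole table the share of rows above the floor lay between 35.3% and 41.5% of a library.

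**Figure D1:**
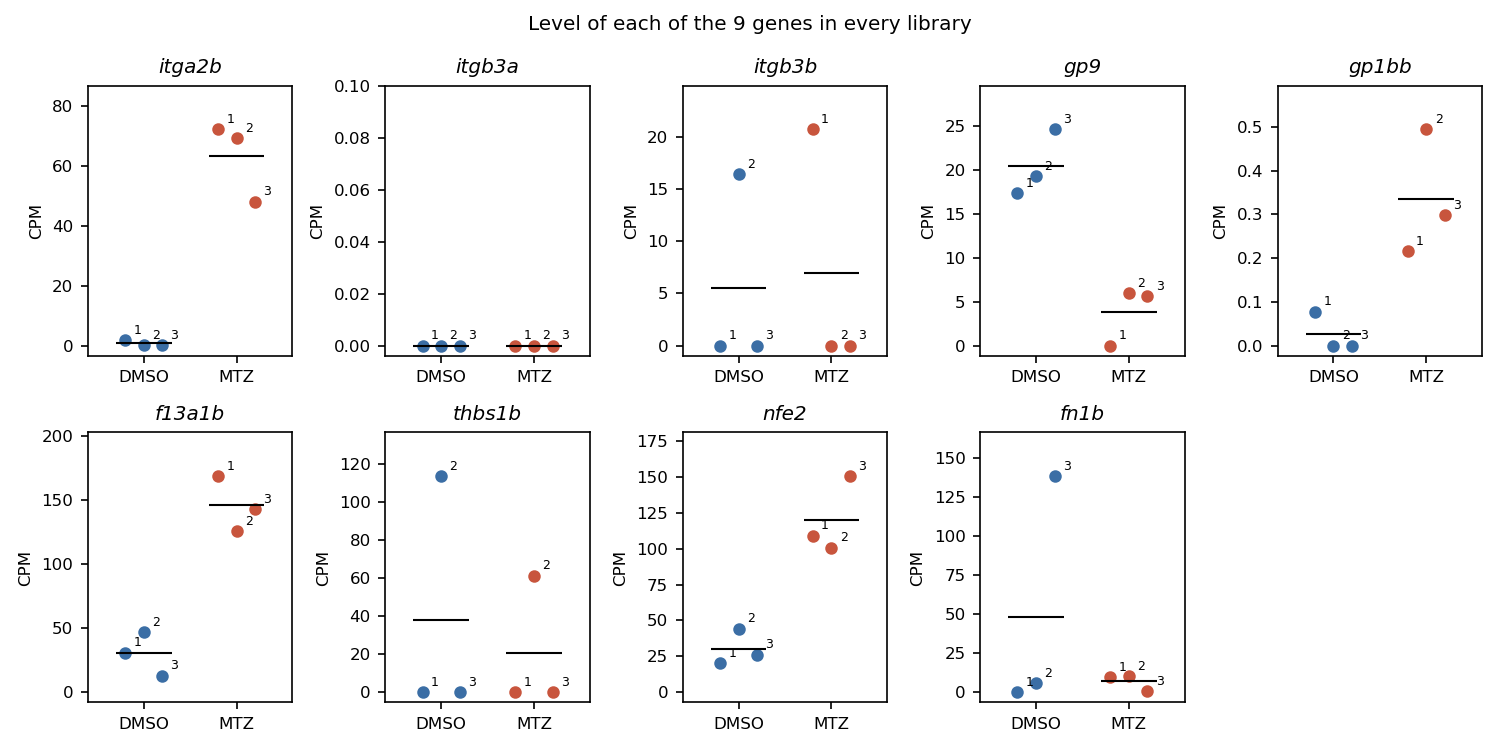
CPM of each of the 9 genes (y axis, scale of its own per panel, 0 included) in the DMSO libraries (blue) and MTZ libraries (red), with library numbers beside the points and a bar at the group mean. The 3 MTZ libraries lie above the 3 DMSO libraries for itga2b, gp1bb, f13a1b and nfe2 and below them for gp9.

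Among the integrin genes, itga2b was high in every MTZ library and at or near the floor in most DMSO libraries. This alpha subunit gene (ENSDARG00000018687) had 24, 1 and 2 counts in DMSO 1, DMSO 2 and DMSO 3 and 1338, 1118 and 967 counts in MTZ 1, MTZ 2 and MTZ 3. In CPM these were 1.87, 0.0585 and 0.132 in DMSO and 72.2, 69.2 and 48.0 in MTZ. All MTZ libraries lay above all DMSO libraries, and DMSO 2 and DMSO 3 were under the floor. The pooled MTZ rate was 104 times the pooled DMSO rate. The exact 95% interval of this ratio, 71.7 to 159, covers counting error of independent reads, but not amplified copies or library spread. The log2 fold change was 6.52 ± 1.79 (standard error), and it did not pass edgeR's test over all genes (unadjusted p = 0.00621, adjusted p = 0.9997). DESeq2 called it (log2 fold change 6.54 ± 1.33, adjusted p = 0.00025), and over all alternatives its adjusted p ran from 0.00025 to 1. The gene itga2b passed the expression filter only through its MTZ libraries, the group where it was high. Without DMSO 1, the DMSO library that held most of its counts, the log2 fold change was 9.29, and in limma voom it was 7.66.

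Neither beta-3 partner followed itga2b. The gene itgb3b (ENSDARG00000045070) had 282 counts in DMSO 2 and 385 in MTZ 1 and none in the other 4 libraries, or 16.5 CPM and 20.8 CPM. The groups overlapped, and the means were 5.5 ± 9.5 CPM in DMSO and 6.93 ± 12 CPM in MTZ (SD, n = 3 each). Its paralog itgb3a (ENSDARG00000056767) had no count in any library. Thus MTZ 2 and MTZ 3, with 69.2 and 48.0 CPM of itga2b, held no count of either beta-3 gene. At 0 counts the floor in those libraries was 0.186 and 0.149 CPM, which covers counting error only. The other alpha subunit gene whose product pairs with beta-3, itgav, had 35.0 CPM in MTZ 3, 5.51 CPM in MTZ 2 and at most 2.37 CPM elsewhere.

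Of the glycoprotein genes, gp9 was measured in 5 libraries and gp1bb in few counts, and neither passed a test. The gene gp9 (ENSDARG00000090638), for the IX subunit, had 17.3, 19.4 and 24.7 CPM in DMSO 1, DMSO 2 and DMSO 3. In MTZ 1, MTZ 2 and MTZ 3 it had 0, 5.94 and 5.61 CPM. All DMSO libraries lay above all MTZ libraries, with means of 20.5 ± 3.78 CPM and 3.85 ± 3.34 CPM (SD, n = 3 each). The log2 fold change of -2.41 ± 2.31 did not pass edgeR's test (adjusted p = 0.9997), and it was -4.40 in limma voom (adjusted p = 0.862) and ran from -2.86 to -1.82 with a library left out. Over all alternatives its adjusted p ran from 0.835 to 1. In the RefSeq annotation of the GRCz12tu assembly, which is not the build of the counts, the span of gp9 overlaps that of zgc:113278. That gene had 97 counts in DMSO 2 and 441 in MTZ 1, where gp9 had none, and no count elsewhere. Whether its reads had a part in the gp9 values was not tested.

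The partner gene gp1bb (ENSDARG00000074441), for the Ib beta subunit, was barely detected. It had 1, 0 and 0 counts in DMSO and 4, 8 and 6 counts in MTZ, all at or under 0.495 CPM. All MTZ libraries lay above all DMSO libraries. Pooled over libraries, MTZ had 14.8 times the DMSO rate (95% counting limits 2.34 and 618), and the gene was too low for the main test. In the GRCz12tu annotation its span overlaps that of myl2b, which had no count in any library. Without a filter on low counts, edgeR gave an unadjusted p of 0.355 for it. No row had the symbol gp1ba, gp5 or gp6. A locus described in the table as similar to platelet glycoprotein Ib alpha, found by searching the descriptions after the values were seen, had 271 counts (14.6 CPM) in MTZ 1 and none in the other 5 libraries. MTZ 1, which held this locus, itgb3b and itga2b, was the library with no count of gp9.

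The factor XIII subunit A gene f13a1b was detected in all libraries and was higher in every MTZ library. It (ENSDARG00000036893) had 30.8, 46.8 and 12.9 CPM in DMSO 1, DMSO 2 and DMSO 3 and 169, 125 and 143 CPM in MTZ 1, MTZ 2 and MTZ 3. All MTZ libraries lay above all DMSO libraries, with means of 146 ± 21.9 CPM and 30.2 ± 17.0 CPM (SD, n = 3 each). The log2 fold change was 2.27 ± 0.61 and did not pass edgeR's test (unadjusted p = 0.00541, adjusted p = 0.9997). DESeq2 called it (adjusted p = 0.0424), and its adjusted p ran from 0.0424 to 1 over all alternatives. Leaving out single libraries gave log2 fold changes between 1.91 and 2.74. In the GRCz12tu annotation the span of f13a1b overlaps that of LOC141375292. No value is given under that name here, which does not mean a count of 0. A next gene, si:dkey-185m8.2, was lower in every MTZ library, at 261 ± 98.7 CPM in DMSO and 84.0 ± 9.30 CPM in MTZ (DESeq2 adjusted p = 0.0287, edgeR adjusted p = 0.9997). The f13a1b paralog f13a1a.1 had 1 count in all, and f13b, for the carrier subunit of the plasma factor, had none.

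In mammals the factor XIII A gene is also expressed in macrophages, so macrophage markers stand beside it. Of 14 tested macrophage markers 6 were higher and 8 lower in MTZ, and their sum ran from 2063 to 3198 CPM in DMSO and from 1661 to 1881 CPM in MTZ. None of the 18 markers was at 0 in all libraries. The defining marker mpeg1.1 had 569, 121 and 238 CPM in DMSO and 143, 0.433 and 135 CPM in MTZ, with overlap. The complement gene c1qb had a higher mean in MTZ, 131 against 23.3 CPM, also with overlap. The antigen presentation genes cd74a and cd74b were lower in every MTZ library, where 5.17% of all genes tested were. The values of cd74a were 123, 44.7 and 131 CPM in DMSO and 22.8, 17.6 and 10.4 CPM in MTZ. DESeq2, which called 1.26% of all genes, called it as the 1 marker of the 14 tested (adjusted p = 0.0459, edgeR adjusted p = 0.9997). A single gene, irf8, made up 1255 CPM of the sum of 1661 CPM in MTZ 2, and without it the sums overlapped, from 1257 to 2184 CPM in DMSO and from 406 to 1790 CPM in MTZ. The part of macrophages in the f13a1b value was not tested.

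The adhesive protein genes thbs1b and fn1b were each set by single libraries. The thrombospondin gene thbs1b (ENSDARG00000010785) had 1943 counts in DMSO 2 and 988 in MTZ 2, or 114 and 61.1 CPM, and at most 2 counts in any other library. The groups overlapped, and the mean was higher in MTZ when DMSO 2 was left out (0.0718 CPM in DMSO and 20.4 CPM in MTZ). Platelets store thrombospondin in their granules in mammals, and here thbs1b did not go with the beta-3 gene in each library. DMSO 2 held both thbs1b and itgb3b, MTZ 2 held thbs1b without itgb3b, and MTZ 1 held itgb3b with 2 counts of thbs1b.

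The fibronectin gene fn1b (ENSDARG00000006526) had 0, 5.85 and 139 CPM in DMSO 1, DMSO 2 and DMSO 3 and 9.66, 10.3 and 0.646 CPM in MTZ 1, MTZ 2 and MTZ 3. DMSO 3 stood above all others, and the groups overlapped. The log2 fold change was -2.81 ± 2.36 (edgeR adjusted p = 0.9997), and it was 1.23 without DMSO 3. In the GRCz12tu annotation its span overlaps that of atic, a purine synthesis gene, which had 125 ± 24.2 CPM in DMSO and 80.6 ± 44.5 CPM in MTZ with overlap. Fibronectin is made by stromal cells as well, and fibroblast and stroma markers summed to 563 CPM in DMSO 3, the highest of the 6 libraries. That sum was 405 CPM in DMSO 1, where fn1b had no count, and 12 CPM in DMSO 2. Of the 15 stroma rows, lum, postna, postnb and fbln1 were at 0 in all libraries, and 5 of 11 tested markers were higher and 6 lower in MTZ. Their part in the fn1b value was not tested.

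The transcription factor gene nfe2 was higher in every MTZ library. It (ENSDARG00000020606) had 20.1, 44.2 and 26.1 CPM in DMSO 1, DMSO 2 and DMSO 3 and 109, 101 and 151 CPM in MTZ 1, MTZ 2 and MTZ 3. The means were 30.1 ± 12.6 CPM and 120 ± 26.9 CPM (SD, n = 3 each), and the groups did not overlap. The log2 fold change was 2.0 ± 0.59, which did not pass edgeR's test (unadjusted p = 0.0092, adjusted p = 0.9997). DESeq2 did not call it (adjusted p = 0.0694), and its adjusted p ran from 0.0694 to 1 over all alternatives. It lay between 1.78 and 2.38 when single libraries were omitted.

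The genes beside nfe2 and the red cell markers give the setting of that value. In the GRCz12tu annotation the next gene is copz1, for a coat protein of transport vesicles. It had 407 ± 73.4 CPM in DMSO and 609 ± 121 CPM in MTZ (SD, n = 3 each) and was higher in every MTZ library. Per 100 copz1 counts there were 5.86, 9.08 and 6.66 nfe2 counts in DMSO and 21.4, 17.5 and 20.3 in MTZ, without overlap. Whether copz1 reads had a part in the nfe2 value was not tested. The gene on the other side, hnrnpa1b, had 136 ± 36.8 CPM in DMSO and 78.5 ± 5.64 CPM in MTZ and was lower in every MTZ library. NF-E2 is also expressed in red cell precursors, and the erythroid markers had sums of 35.3 to 143 CPM in DMSO against 13.2 to 47.5 CPM in MTZ. Of 18 erythroid rows 9 were at 0 in all libraries, among them alas2, hbaa1 and hbba1, and all 3 tested had a negative log2 fold change, hbae1.1 at -0.14 and epor at -0.48. The third, the transferrin receptor gene tfr1a, had 2.10, 19.3 and 18.8 CPM in DMSO and no count in MTZ. It passed the expression filter through its DMSO libraries alone. DESeq2, which called 1.26% of all genes, called it (adjusted p = 0.0104, edgeR adjusted p = 0.9997).

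**Figure D2:**
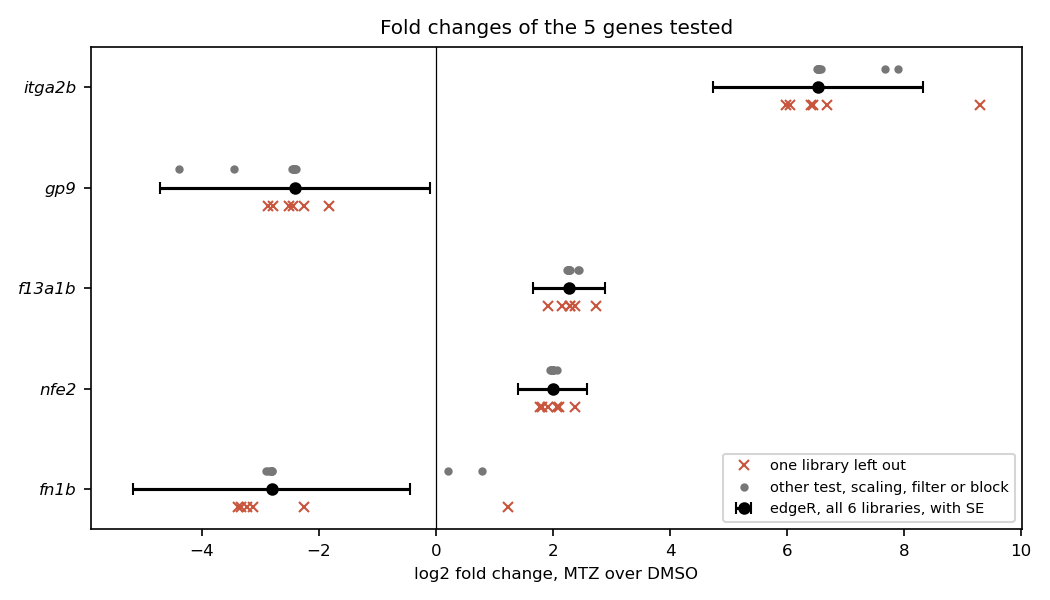
Log2 fold change of MTZ over DMSO (x axis) for the 5 genes that passed the expression filter, as the edgeR value with its standard error (black), the values with 1 library left out (red crosses) and the values under the other alternatives (grey). The values of f13a1b and nfe2 stay between 1.78 and 2.74, and those of fn1b fall on both sides of 0.

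Set against all genes, the counts of the 9 were as follows. The genes were chosen with earlier results of these data known, so the shares are a description and no test. The 9 include itgb3a, which had no count, while some shares are over rows with any count. EdgeR called 0 of 10283 genes (0%) and 0 of the 9, of which 5 were high enough to be tested. The 4 not tested were itgb3a, itgb3b, gp1bb and thbs1b, and itga2b passed the filter through its MTZ libraries. An unadjusted p below 0.05 was found for 327 genes (3.18%), of which 188 were higher in MTZ (1.83%), itga2b, f13a1b and nfe2 among them. Of the 5 tested genes 3 had a positive log2 fold change, against 50.9% of all genes tested. DESeq2 called 130 genes (1.26%), 73 of them higher in MTZ (0.71%), among them itga2b and f13a1b, and limma voom called 0. Without the filter on low counts edgeR called 52 of 17911 genes (0.29%) and 0 of the 9. DMSO and MTZ libraries did not overlap, with MTZ higher, in 4 of the 9 genes (itga2b, gp1bb, f13a1b and nfe2) and in 3.89% of all rows with any count (5.58% of genes tested). With MTZ lower they did not overlap in 1 of the 9 (gp9) and in 3.52% of those rows (5.17% of genes tested). For each of these 5 genes the two-sided exact permutation test gave p = 0.1, the smallest that 3 against 3 libraries allow. Groups without overlap always give this value, so it restates the separation and is no further evidence for a difference. For thbs1b and fn1b, whose groups overlapped, the two-sided exact permutation test gave p = 0.7 and p = 0.9. For itgb3b, which also overlapped, its value was larger still. By the mean, 5 of the 9 were higher and 3 lower in MTZ, and 50.4% of all rows with any count were higher.

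Stem and progenitor markers are given beside itga2b and nfe2, since early blood progenitors can express these genes. Of 10 tested markers 7 were higher and 3 lower in MTZ, and the sum ran from 794 to 1620 CPM in DMSO and from 1641 to 2202 CPM in MTZ without overlap, which was lost with upper-quartile factors. Without fli1a, which is also an endothelial and megakaryocyte gene, the sums overlapped, from 752 to 1480 CPM in DMSO and from 973 to 1919 CPM in MTZ. The marker kitb was at 0 in all libraries, kita had 3.34 CPM in DMSO 1 and no count elsewhere, and mecom had 5 counts in DMSO 2 alone. The liver list, with 3 of 4 tested members higher, also did not overlap (31.7 to 96.1 CPM and 267 to 709 CPM), but without rbp4 it summed to between 12.1 and 34.0 CPM in every library. Liver supplies most plasma clotting factors, and fga, fgb and fgg, the fibrinogen genes, were at 0 throughout. Whether these cell types had a part in the differences was not tested beyond these values.

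**Figure D3:**
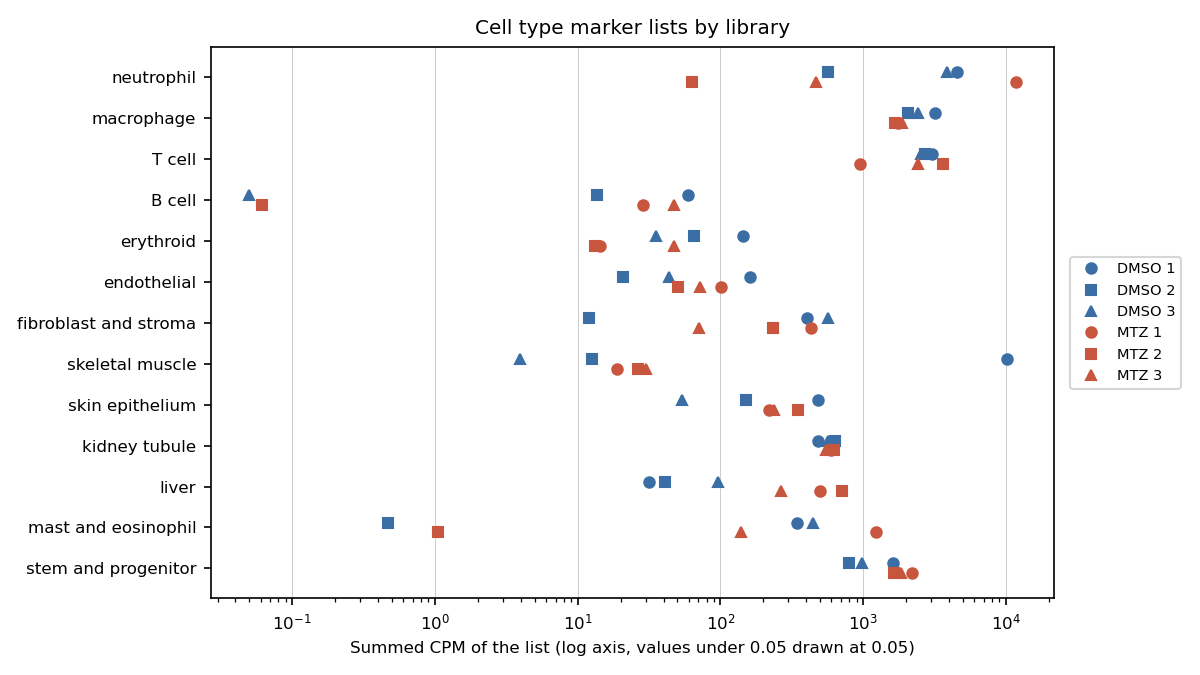
Summed CPM (x axis, log scale) of 13 lists of cell type markers (y axis) in the DMSO libraries (blue) and MTZ libraries (red), with 1 symbol per library number. Macrophage sums are lower in all MTZ libraries and stem and progenitor and liver sums higher, separations that are lost without irf8, fli1a and rbp4 in turn, and the muscle sum of DMSO 1 stands apart at 10245 CPM.

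Genes of a mixed list, of integrin activation and of signalling from the integrin, were found in both directions. Of 27 tested genes of this list 14 were higher and 13 lower in MTZ (median log2 fold change 0.03, against 0.02 over all genes tested), and 0 passed edgeR's or DESeq2's test. Their members of smallest p were rhoaa, rap1b and lyn. The small GTPase gene rap1b, whose product switches the platelet integrin on, had 390, 393 and 289 CPM in DMSO and 515, 477 and 489 CPM in MTZ. The kinase gene lyn had 2.33, 3.74 and 2.63 CPM in DMSO and 28.0, 21.3 and 35.5 CPM in MTZ, a log2 fold change of 3.28 ± 1.71. Neither set of libraries overlapped, and neither gene passed (edgeR adjusted p = 0.9997 for both). The rap1b paralog rap1ab, of the same list and chosen after its values were seen, was lower without overlap. It had 86.2, 61.0 and 69.8 CPM in DMSO and 23.5, 17.0 and 50.2 CPM in MTZ. Over the list 3 genes were higher and 1 lower without overlap, where 5.58% and 5.17% of all genes tested were. The GTPase gene rhoaa had 304 ± 75.1 CPM in DMSO and 186 ± 62.8 CPM in MTZ, with overlap. The adaptor genes tln1 and fermt3b, for talin and kindlin-3, were found in every library.

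The ligands and clotting factors were mostly not detected. Of 11 rows for adhesive ligands of the integrin, 9 were at or under the floor in every library, von Willebrand factor (vwf) and both vitronectin genes among them, and none was tested. Of 29 rows for coagulation factors and their regulators, 18 were at or under the floor in every library and 3 were tested, all 3 with a positive log2 fold change and none called by edgeR or DESeq2. The protease inhibitor gene serpine2 had 139 ± 105 CPM in DMSO and 235 ± 114 CPM in MTZ. Factor V (f5), which platelets carry in mammals, had 64.1 CPM in MTZ 1, 19.7 CPM in DMSO 3 and at most 3.11 CPM elsewhere. The gamma-carboxylase gene ggcx had 3.04 ± 3.29 CPM in DMSO and 3.84 ± 3.75 CPM in MTZ.

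Of 20 rows for receptors of thrombocyte agonists and surface glycoproteins, few were high enough to test. The 6 tested were 2 higher and 4 lower in MTZ (median log2 fold change -1.62), where 5051 of all 10283 genes tested were lower, and 0 were called by edgeR or DESeq2. The ATP-gated channel gene p2rx1 had 78.8, 200 and 726 CPM in DMSO and 2.10, 76.5 and 78.5 CPM in MTZ (log2 fold change -2.68 ± 1.2, edgeR adjusted p = 0.9997), and the groups did not overlap. They overlapped when scaled by library totals or upper-quartile factors. Its deposited counts had decimals, 1013.93 in DMSO 1 among them. The ADP receptor gene p2ry1 had 30.7 CPM in DMSO 3 and at most 1.73 CPM elsewhere, and the tested one of 2 selectin rows named selp had 24.5 ± 23.5 CPM in DMSO and 4.30 ± 3.84 CPM in MTZ. The ADP receptor gene p2ry12 and the thromboxane receptor gene tbxa2r, both of mature platelets in mammals, were at 0 in all libraries.

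**Figure D4:**
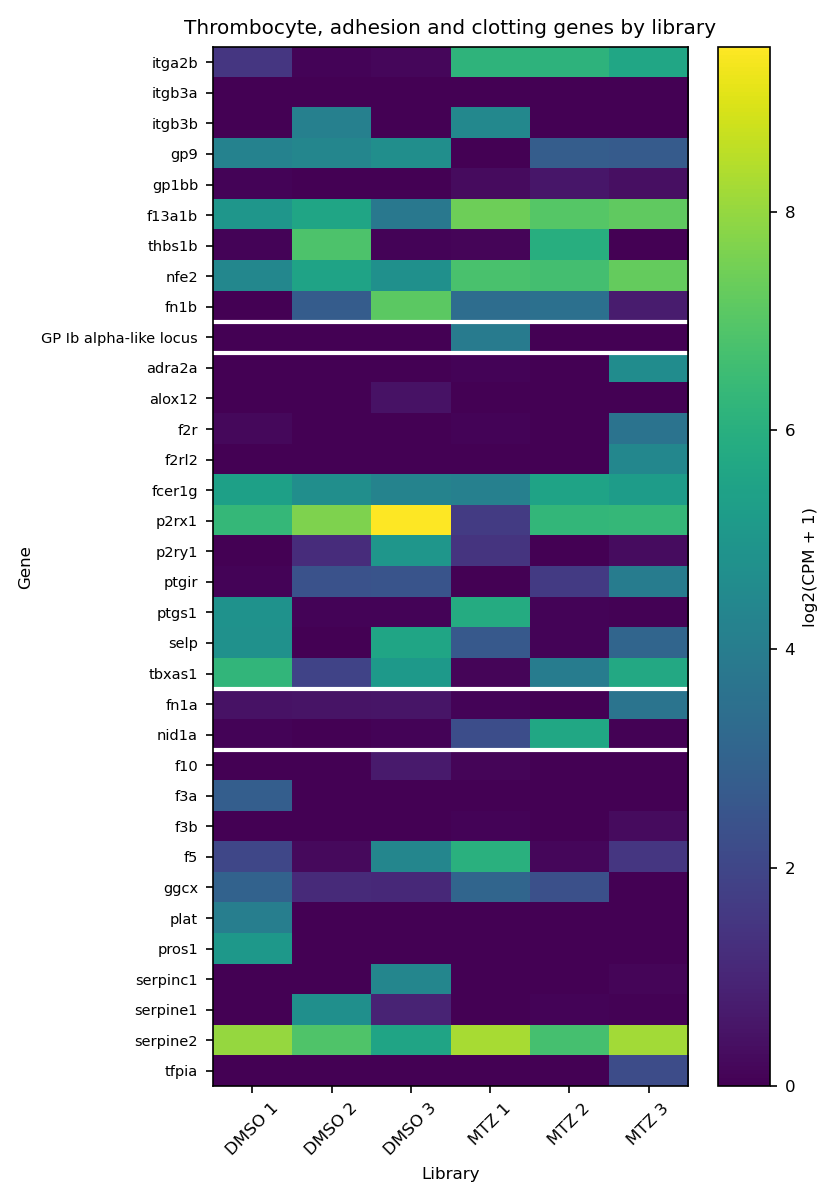
Log2(CPM + 1) in each library (columns) of the 9 genes, of the locus similar to glycoprotein Ib alpha, and of those agonist receptor, adhesive ligand and coagulation genes that rose above 3 counts in some library (blocks from top to bottom, split by white lines). Colours compare libraries within a row, and f2r, plat and serpinc1 are examples above 3 counts in 1 library.

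Among transcription factors of megakaryocytes and thrombocytes, 12 of 19 tested were higher and 7 lower in MTZ (median log2 fold change 0.25), where 50.9% of all genes tested were higher with a median of 0.02. None passed edgeR's test, and DESeq2, which called 1.26% of all genes, called fli1a and bach1b. Of these, bach1b passed the expression filter through its DMSO libraries alone. The ETS factor gene fli1a had 140, 41.6 and 115 CPM in DMSO and 283, 668 and 373 CPM in MTZ (DESeq2 adjusted p = 0.0119). Its paralog fli1b had 482, 408 and 138 CPM in DMSO and 176, 335 and 200 CPM in MTZ, with overlap (log2 fold change -0.53). The repressor gene bach1b had 5.68, 34.1 and 8.88 CPM in DMSO and no count in MTZ. Its product competes with NF-E2 type factors for small Maf partners in mammals. The pooled DMSO rate was 320.5 times that of 3 counts over the pooled MTZ libraries, a ratio that leaves out library spread. Without DMSO 2, which held 584 of the counts, this ratio was 135.4. The bach1b paralog bach1a, too low for the main test, had 3.03 CPM in DMSO 3, 20.1 CPM in MTZ 3 and no count elsewhere. The progenitor factor gene lmo2 had 132 ± 84.0 CPM in DMSO and 226 ± 85.7 CPM in MTZ. The factor genes gata1a and gfi1b, both required in mouse megakaryocytes, followed no group. The gata1a gene had 36.6, 38.1 and 42.2 CPM in DMSO 2, DMSO 3 and MTZ 3 and at most 0.0540 CPM elsewhere, and gfi1b had no count in MTZ 1 and MTZ 2.

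Granule and cytoskeleton genes completed the lists. Of 18 tested granule and secretion genes 9 were higher and 9 lower (median log2 fold change -0.02), and 0 were called by edgeR or DESeq2. The granule proteoglycan gene srgn reached 3330 CPM in MTZ 1 and lay from 996 to 1228 CPM elsewhere. MTZ 1 was also the library richest in neutrophil markers, with a sum of 11789 CPM against 63.0 to 4514 CPM elsewhere. That sum was 4514 CPM in DMSO 1 and 63.0 CPM in MTZ 2, where srgn had 1065 and 1038 CPM. Whether neutrophils had a part in the srgn value was not tested. The granule genes next by p were plek, with 100 ± 72.4 CPM in DMSO and 210 ± 129 CPM in MTZ, and hps4, with 17.7 ± 18.4 and 2.19 ± 3.74 CPM. Of 13 tested cytoskeleton genes 10 were higher and 3 lower (median log2 fold change 0.46, against 50.9% higher and a median of 0.02 over all genes tested), and DESeq2 called cdc42 alone, against 1.26% of all genes. That GTPase gene had 251, 208 and 183 CPM in DMSO and 552, 430 and 473 CPM in MTZ (DESeq2 adjusted p = 0.00501, edgeR adjusted p = 0.9997). The others named by p were wasb, with 207 ± 31.8 and 295 ± 73.6 CPM, and tpm1, with 98.9 ± 42.1 and 50.7 ± 16.6 CPM in DMSO and MTZ and no overlap. The paralog tpm4a was higher without overlap, at 22.6 ± 7.27 CPM in DMSO and 38.7 ± 4.35 CPM in MTZ. Of the tested cytoskeleton genes 2 were higher and 1 lower without overlap, where 5.58% and 5.17% of all genes tested were. The platelet beta-tubulin gene tubb1 was found in DMSO 2, MTZ 1 and MTZ 2 only.

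A search for genes like itga2b left out the set of 10, rows without an Ensembl ID and symbols resembling clone names. Among the other genes tested, those most like itga2b over the 6 libraries were wdr21, acp2, zdhhc16a, znf711 and cnot11, by Pearson's correlation of log2 CPM. Their correlations lay between 0.984 and 0.992 and are a description, since the genes were picked for them and the libraries fall into separate groups. The lysosomal acid phosphatase gene acp2 had 2.57, 0 and 0 CPM in DMSO and 47.4, 48.5 and 62.1 CPM in MTZ. The gene znf711, for a zinc finger protein, had 2.88, 0 and 0.0658 CPM in DMSO and 39.5, 32.5 and 17.1 CPM in MTZ. Like itga2b, acp2 and znf711 passed the expression filter only through their MTZ libraries. The other 3 were present in all libraries. In wdr21, for a WD repeat protein, the means were 28.6 ± 10.7 CPM in DMSO and 95 ± 17.6 CPM in MTZ. In cnot11, a subunit of the CCR4-NOT deadenylase, they were 28.8 ± 9.05 and 73.8 ± 8.46 CPM, and in zdhhc16a, a palmitoyltransferase, 2.52 ± 1.73 and 26.0 ± 10.2 CPM.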

How the data were processed

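Estimated counts per gene and library, not scaled, were deposited by the authors in 1 table. Per the submitters' processing notes HISAT2 and GRCz11 were used, and the sources used here do not name the counting tool, the annotation or strand use. Between 8.31% and 9.90% of nonzero values had decimals, so all were rounded. Without stated strand, reads of overlapping genes cannot be told apart.

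MTZ was compared with DMSO by edgeR 4.0.16 (R 4.3.3, quasi-likelihood, two-sided) with TMM factors, the default filter (minimum count 10) and group as the only term, with Benjamini-Hochberg adjustment over 10283 genes and a threshold of 0.05. Standard errors are the fold change over the square root of F. The test was checked on simulated counts with far less spread between libraries than these data had. That check does not cover its error rate or power at the spread seen here. Alternatives were DESeq2 1.42.0, limma 3.58.1 voom, other scalings, filters and rows, a robust fit, a replicate block, and leaving out each library.

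The 10 genes and all lists were chosen with earlier results of these data known. Named besides them are the 3 tested genes of smallest p in each of 7 pathway lists. The list of adhesive ligands had no tested gene, so none was named from it by p. Also named are the 5 genes most correlated with itga2b, with rows without an Ensembl ID and clone-like symbols passed over. Other named genes were chosen after their values were seen. Neighbouring genes came from the RefSeq table of GRCz12tu, where all 9 symbols matched. Of the set of 10, 1 gene, with what depends on it, is not reported here. No coordinates or sequences are given. Intervals and floors cover counting error only. They treat each read as independent, and without molecular identifiers amplified copies are not accounted for.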

Additional observations from a re-analysis of the deposited data

How the results depend on the processing

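All 10 alternatives other than leaving out a library kept 0 genes and 0 of the 9 called, except DESeq2, which called 130 genes and 2 of the 9, and edgeR without a filter, which called 52 genes (29 higher, 23 lower) and 0 of the 9. Omitting single libraries, the count of genes called ran from 0 to 0, the count of the 9 called from 0 to 0, and the count with a higher mean in MTZ from 4 to 6 against 5, by changes in itgb3b, thbs1b and fn1b. Of 79 fold changes recomputed for single genes, 74 kept their direction and side of the threshold, 2 became calls (itga2b and f13a1b in DESeq2) and 3 reversed. The 3 were all of fn1b, at 0.20 in limma voom, 0.79 with the replicate block and 1.23 without DMSO 3, in a range from -3.38 to 1.23 over the single omissions; the cause was not tested. With the replicate number as a block, 0 genes passed, and the log2 fold change was -3.46 for gp9 and 7.89 for itga2b. Same-numbered libraries of the groups had deviations from their group means correlated at values from -0.0459 to -0.000827 over genes, none correlated best with its own number, and the numbers were not taken as pairs. The biological coefficient of variation was 1.42, and the 4 genes below the filter have no tested value in the main comparison. Scaling by library totals, RLE or upper-quartile factors left the 5 of the 9 genes without overlap between the groups at 5. Scalings of the overlap, marker sums without 1 gene and the pooled ratio of bach1b without a library were alternatives chosen after seeing the data.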

Other observations

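Some genes of the agonist receptor and coagulation lists were detected in a single library. Above 3 counts in exactly 1 library were 7 of 29 coagulation rows, 4 of 20 rows of the list of agonist receptors and surface glycoproteins, which also holds enzymes such as alox12, and 0 of 11 rows for adhesive ligands. In DMSO 1 these were the protein S gene pros1 with 33.0 CPM, the tissue plasminogen activator gene plat with 15.9 CPM and the tissue factor gene f3a with 6.22 CPM. In DMSO 3 they were the antithrombin gene serpinc1 with 19.6 CPM, f10 with 0.592 CPM and alox12 with 0.395 CPM. In MTZ 3 they were the adrenergic receptor gene adra2a with 23.3 CPM, the thrombin receptor family genes f2rl2 and f2r with 20.1 and 11.3 CPM, tfpia with 3.67 CPM and f3b with 0.199 CPM. No gene of the 3 lists was found in this way in DMSO 2, MTZ 1 or MTZ 2. Skeletal muscle markers also stood apart in DMSO 1, at 10245 CPM, and the cell source of pros1, plat and f3a there was not tested. Of the coagulation rows above the floor anywhere, 63.6% were in a single library. The share was 36.4% of the rows of the agonist receptor list, 0% of ligand rows and 21% of all rows of the table above the floor anywhere.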
